A study of Mus musculus with 6 samples.

Results

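The genes that move zinc and iron across membranes and store them, together with the metallothioneins, were compared between cultured and primary mesenchymal stem cells (MSCs) of mouse long bone. The members were taken by gene symbol alone: the zinc transporters of the Slc30a and Slc39a families, the metallothioneins Mt1 to Mt4, and 11 genes of iron handling (Slc11a1, Slc11a2, Slc40a1, Tfrc, Tfr2, Fth1, Ftl1, Ireb2, Steap3, Cp and Ncoa4). The rule found 38 of the 17457 genes in the expression table, and Slc30a8 was not analysed here. RNA was sequenced from 4 libraries of cultured MSCs (cMSCs) and 2 libraries of primary MSCs (pMSCs), all from wild type female C57BL/6J mice of 10 weeks. For cMSCs, the mixed cells released from digested bone were grown in MesenCult medium over 10 days, without a further passage, and the MSCs were sorted afterwards. For pMSCs, the MSCs were sorted straight from the digest. In both, MSCs were viable cells positive for Sca-1 and PDGFR-α and negative for CD45, Ter119 and CD31. Each cMSC library came from 2 mice, while the pMSC libraries were pools of 4 and of 6 mice, and which pool is which library is not given in the sources used here. The cMSCs were also detached from the flask by an enzyme before the sort. RNA was extracted from more cells for each cMSC library, although per the study's methods an equal amount of RNA from every sample was amplified. The groups therefore differ in culture, detachment, the moment of sorting, cell number and pooling, which cannot be told apart. The p-values measure only the spread between these 6 libraries.

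Levels are FPKM, which scale the fragments of a gene by transcript length and by the mapped fragments of the library. The 11405 genes that reached 1 FPKM in 2 or more libraries were tested, and a gene is said to have risen or fallen in cMSCs where limma gave a Benjamini-Hochberg adjusted p under 0.05 over all of them. A log2 fold change is the mean of log2(FPKM + 0.1) in cMSCs minus that in pMSCs. The scale of the comparison matters here, because the median gene tested had a log2 fold change of 0.45 and not 0. It was 0.31 after each library was rescaled to the same sum (TPM), 0.11 after quantile normalization and 0.02 after median ratio scaling. Genes of the positive sort markers were expressed in all 6 libraries. Ly6a, which encodes Sca-1, averaged 1161 ± 32.2 FPKM in cMSCs (SD, n = 4) and 1384 ± 464 FPKM in pMSCs (SD, n = 2). Ly6a was not called (log2 fold change -0.21, limma adjusted p = 0.313). It was called lower after median ratio scaling (-0.65, adjusted p = 0.0133), but not with TPM (-0.35, adjusted p = 0.126) or quantile normalization (-0.19, adjusted p = 0.252). Pdgfra averaged 39.6 ± 3.99 FPKM in cMSCs and 69.7 ± 4.11 FPKM in pMSCs and fell (-0.82, limma adjusted p = 4.86e-04). Of 10 mesenchymal sort and lineage markers tested, 1 rose (Prrx1, 0.88), 5 fell and 4 were not called, where 48.1% of all genes rose and 17.6% fell. With median ratio scaling 1 rose and 7 fell, where 29.3% of all genes rose and 28.6% fell. Lepr, among those that fell, averaged 3.19 FPKM in cMSCs and 34.6 FPKM in pMSCs (-3.44, limma adjusted p = 1.24e-05). Thy1 also fell, at 2.54 FPKM in cMSCs and 31.8 FPKM in pMSCs (-3.74, limma adjusted p = 4.41e-04). Markers of several other cells differed between the groups, while of the 9 neutrophil markers 3 were tested and were not called (limma adjusted p of 0.0975 to 0.635, sums of 3.79 to 8.30 FPKM in cMSCs, against 6.92 and 10.7 FPKM in pMSCs). The summed level of 15 macrophage and monocyte markers was 106 to 334 FPKM in cMSCs, against 38.2 and 34.9 FPKM in pMSCs. Of the 12 tested, 10 rose (83.3%), against 48.1% of all genes. Csf1r, Adgre1, Fcgr3, C1qa, C1qb, C1qc and Tyrobp reached 1 FPKM only in cMSCs, so these had to differ and lend no weight to this count. Most of the cMSC sum was Lyz2, at 180.04, 221.30, 60.57 and 174.98 FPKM in cMSCs 1 to 4, against 11.81 and 18.10 FPKM in pMSCs. Of the other tested markers, Cd74 fell (log2 fold change -2.29, limma adjusted p = 0.00362) and Cd14 was not called (-0.35, adjusted p = 0.204). The sum of 9 erythroid markers was 0.270 to 0.780 FPKM in cMSCs, against 239 and 150 FPKM in pMSCs, with hemoglobin genes making up most of it. Osteoclast markers (6 genes, Dcstamp at 0 throughout) summed to 259 to 288 FPKM in cMSCs, against 820 and 643 FPKM in pMSCs. Most of that sum was Ctsk, which averaged 262 FPKM in cMSCs and 570 FPKM in pMSCs, and Ocstamp went the other way, at 0.265 FPKM in cMSCs and 0.0300 FPKM in pMSCs. In bulk samples of this kind, fewer cells of a type and less RNA per cell cannot be told apart.

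Zinc and iron are needed by many enzymes and are harmful in excess, so cells control their entry, storage and exit closely. ZIP proteins (Slc39a) bring zinc into the cytosol from outside or from organelles, ZnT proteins (Slc30a) carry it out of the cytosol, and metallothioneins are small cysteine-rich proteins that bind it. Metallothionein genes are switched on by the zinc-sensing factor MTF1 through short metal-responsive elements in their promoters. Iron bound to transferrin enters through the transferrin receptor, is reduced and passes into the cytosol, is stored in ferritin, and leaves through ferroportin. Iron regulatory proteins bind hairpins called iron-responsive elements when iron is scarce. Binding in a 5′ UTR blocks translation, and binding in the 3′ UTR of the transferrin receptor protects the mRNA from decay.

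The iron-responsive elements are shown because they separate the genes in which the element bears mainly on translation from Tfrc, in which it bears on the mRNA level that sequencing reads. A search of GENCODE M21 transcripts for a C, a stem of 5 bases, the loop CAGTG followed by A, C or T, and 5 bases that pair with the stem found the pattern in the UTRs of 4 of the 38 members. Over all protein-coding genes it was found in 124 of 21877 (0.567%). An element that departs from this pattern is missed, so a member without a match may still carry an element. Each is given 5′ to 3′ on the strand of the transcript, in GRCm38, with the 6 loop bases in capitals.
Slc40a1, 5′ UTR, chr1:45925464-45925493, minus strand: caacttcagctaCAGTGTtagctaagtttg
Fth1, 5′ UTR, chr19:9982732-9982761, plus strand: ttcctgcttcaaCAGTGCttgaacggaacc
Ftl1, 5′ UTR, chr7:45459778-45459807, minus strand: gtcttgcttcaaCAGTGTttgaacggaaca
Tfrc element 1, 3′ UTR, chr16:32631219-32631248, plus strand: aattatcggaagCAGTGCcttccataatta
Tfrc element 2, 3′ UTR, chr16:32631598-32631627, plus strand: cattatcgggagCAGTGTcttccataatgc
Tfrc element 3, 3′ UTR, chr16:32631663-32631692, plus strand: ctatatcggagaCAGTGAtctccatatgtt
Tfrc element 4, 3′ UTR, chr16:32631710-32631739, plus strand: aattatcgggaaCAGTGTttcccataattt
Mt1 and Mt2, neighbours on chromosome 8, each held 5 matches to the metal-responsive element (TGCACNC or TGCGCNC, either strand, overlaps counted) in the 250 bases before their TATAAA box. These are shown from the plus strand of GRCm38.p6, which is the strand of both genes, as 21 bases with the 7 matching bases in capitals.
Mt1 element 1, chr8:94179059-94179079: cccgctgTGCACACtggcgct
Mt1 element 2, chr8:94179084-94179104: ggagctcTGCACTCcgcccga
Mt1 element 3, chr8:94179102-94179122: cgaaaagTGCGCTCggctctg
Mt1 element 4, chr8:94179166-94179186, minus-strand match: gcctgctGGGTGCAaaccctt
Mt1 element 5, chr8:94179180-94179200: aacccttTGCGCCCggactcg
Mt2 element 1, chr8:94172561-94172581, minus-strand match: ggagggcGTGTGCAggctctg
Mt2 element 2, chr8:94172615-94172635, minus-strand match: tcgggtcGTGCGCAggcccag
Mt2 element 3, chr8:94172669-94172689, minus-strand match: aaagggcGTGTGCAggcggcg
Mt2 element 4, chr8:94172688-94172708, minus-strand match: cgggggcGCGTGCAtggtgcc
Mt2 element 5, chr8:94172722-94172742: gagctttTGCGCTCgacccaa
The bases come from the RefSeq promoter table (GRCm38.p6), joined to the GENCODE M21 transcript where the TATAAA box lies after the annotated start. The annotated start used for this search (94179082 for Mt1, 94172664 for Mt2) lies 128 bases upstream of the box in Mt1 and 89 bases upstream in Mt2. It differs from the RefSeq gene starts given further below. Before it, the RefSeq promoter windows (94178839 to 94179138 for Mt1, 94172368 to 94172667 for Mt2) held 1 match for Mt1 and 3 for Mt2. Of 32851 such windows, 21.4% held at least 1 match and 5.17% at least 2, and no share was computed for windows placed before a TATAAA box. A match is a run of letters and not a measured binding site.

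Of the 38 members, 28 passed the filter on low values, 18 of these rose (64.3%) and 6 fell (21.4%). Over all 11405 genes tested, 48.1% rose and 17.6% fell (65.7% in either direction). The groups did not overlap for 24 of the 28, where the share over all genes was 72.8%. The median log2 fold change of the 28 was 0.71. Slc11a1 passed the filter only through cMSCs, and Mt3 and Slc39a8 only through pMSCs, so these had to differ and lend no weight to the counts. The other 10 members were not tested, since their highest value in any library was 1.16 FPKM (Slc39a2 in pMSC 1), and Mt4 and Slc30a2 were listed at 0 in all 6. At the stricter thresholds of the study's methods, with 0.01 as the limit of the adjusted p and 2 as the least log2 fold change in either direction, Tfrc and Slc30a9 were higher (8.36% of all genes tested were) and Cp and Mt3 were lower (5.95% were). Slc30a9 missed them when any of cMSCs 2 to 4 or either pMSC library was left out, with log2 fold changes of 1.90 to 2.30 and limma adjusted p of 0.0111 to 0.0371. It also missed them with TPM (1.98), quantile normalization (1.79), median ratio scaling (1.68), a pseudocount of 1 (1.87) and no filter (2.10, adjusted p = 0.0101).

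**Figure D1:**
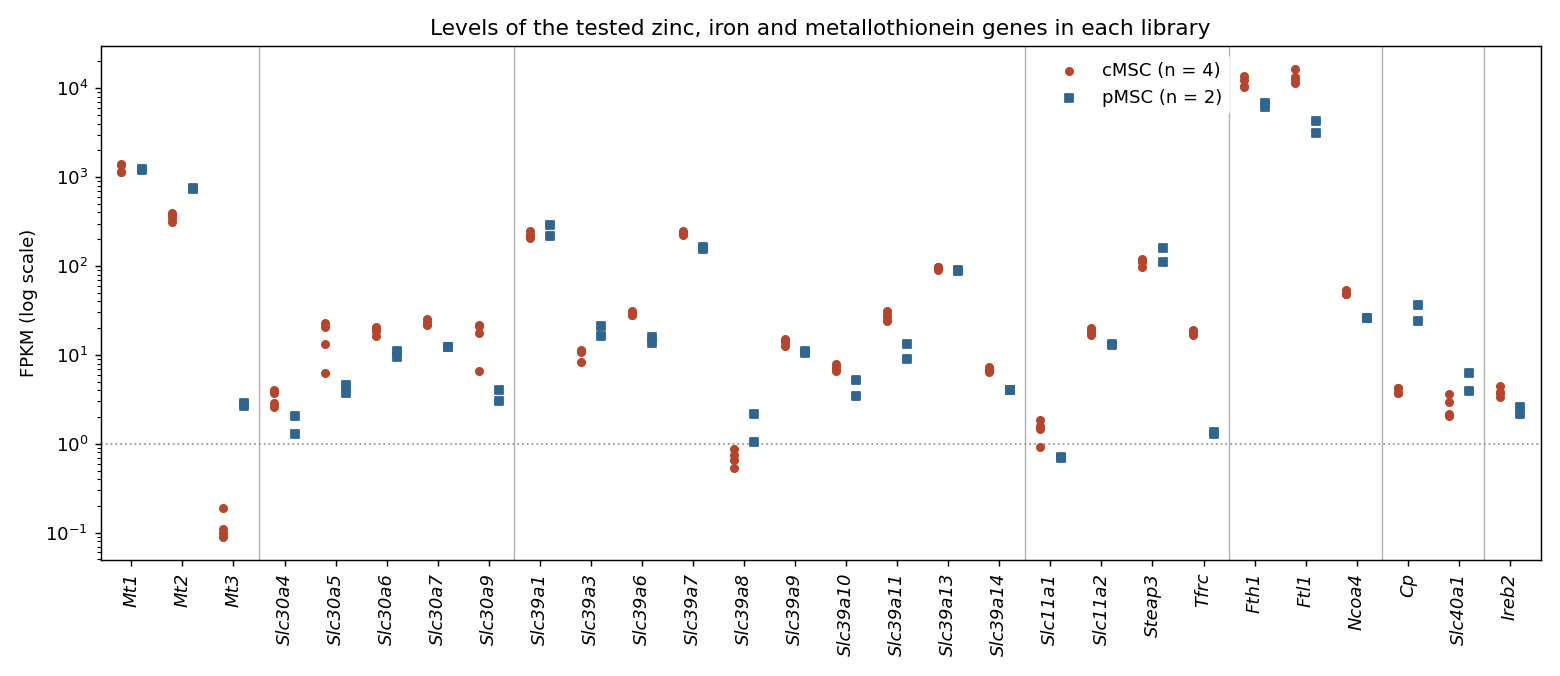
FPKM of the 28 tested members in each library on a log scale, cMSCs as circles and pMSCs as squares, grouped by vertical lines into metallothioneins, ZnT, ZIP, iron uptake, iron storage, iron export and Ireb2; the dotted line is 1 FPKM. Fth1 and Ftl1 lie highest, at 10393.84 FPKM or more in every cMSC library, and Mt3 lies lowest in cMSCs at 0.09 to 0.19 FPKM.

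**Figure D2:**
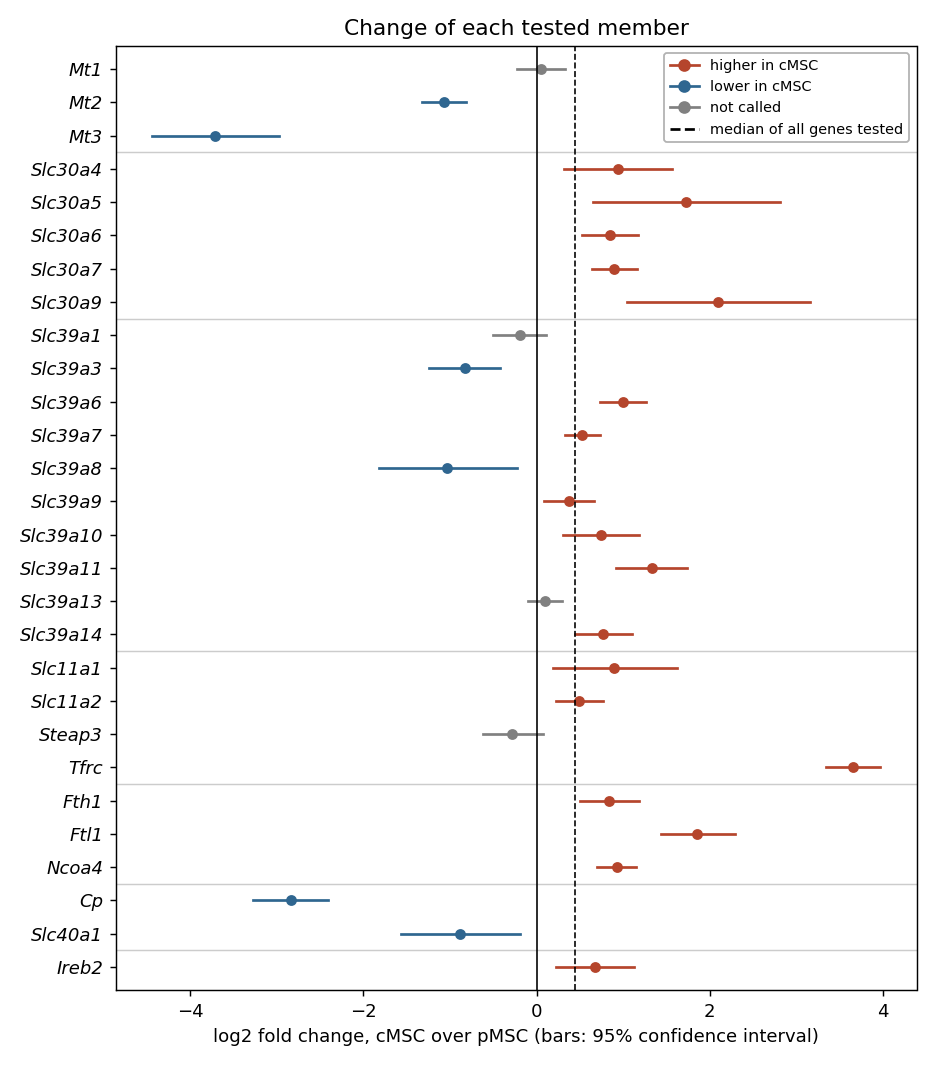
The log2 fold change of each tested member, cMSC over pMSC, with its 95% confidence interval from limma (4 cMSC and 2 pMSC libraries); the dashed line is the median of all genes tested, 0.45. Tfrc lies farthest to the right at 3.66, and Mt3 and Cp farthest to the left at -3.71 and -2.84.

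Of the metallothioneins, Mt2 fell to 0.479 times its pMSC mean, Mt3 fell close to nothing, and Mt1 was not called on FPKM as deposited. Mt1 had 1138.31, 1143.68, 1387.38 and 1382.53 FPKM in cMSCs 1 to 4, against 1213.96 and 1218.11 FPKM in pMSCs 1 and 2. The cMSC values lay on both sides of the pMSC values, with a log2 fold change of 0.05 (SE 0.12, 95% interval -0.23 to 0.33, limma adjusted p = 0.741). Its sign depended on the scale: it was -0.09 after TPM rescaling (adjusted p = 0.527) and -0.39 after median ratio scaling, where limma called it lower (adjusted p = 0.0249). Mt2, its neighbour and the other widely expressed metallothionein, had 316.06, 345.95, 378.43 and 393.46 FPKM in cMSCs, against 734.23 and 763.30 FPKM in pMSCs. All 4 cMSC libraries lay far below both pMSC libraries. Mt2 thus had a log2 fold change of -1.07 (SE 0.11, limma adjusted p = 7.56e-05), and it fell under every scaling tried.

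A ratio of these neighbours inside a library is the same on FPKM, TPM and median ratio scales, which multiply a whole library by 1 factor, but not after quantile normalization. Mt1 over Mt2 was 3.60, 3.31, 3.67 and 3.51 in cMSCs, against 1.65 and 1.60 in pMSCs. The groups were well apart, so that Mt2 made up 22.1 ± 0.784% of the sum of both in cMSCs (SD, n = 4) and 38.1 ± 0.591% in pMSCs (SD, n = 2). The ratios within libraries are given as a description and were not tested. Mt3, best known from brain, had 0.09, 0.10, 0.19 and 0.11 FPKM in cMSCs, against 2.65 and 2.88 FPKM in pMSCs. It was low in all libraries and nearly absent from cMSCs, with a log2 fold change of -3.71 (SE 0.32, limma adjusted p = 2.89e-05). Mt4, known from stratified epithelium, was listed at 0 in every library. The 4 genes lie within one stretch of chromosome 8 (GRCm38.p6), Mt4 at chr8:94137204-94139031, Mt3 at chr8:94152607-94154148, Mt2 at chr8:94172618-94173567 and Mt1 at chr8:94178883-94180327.

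**Figure D3:**
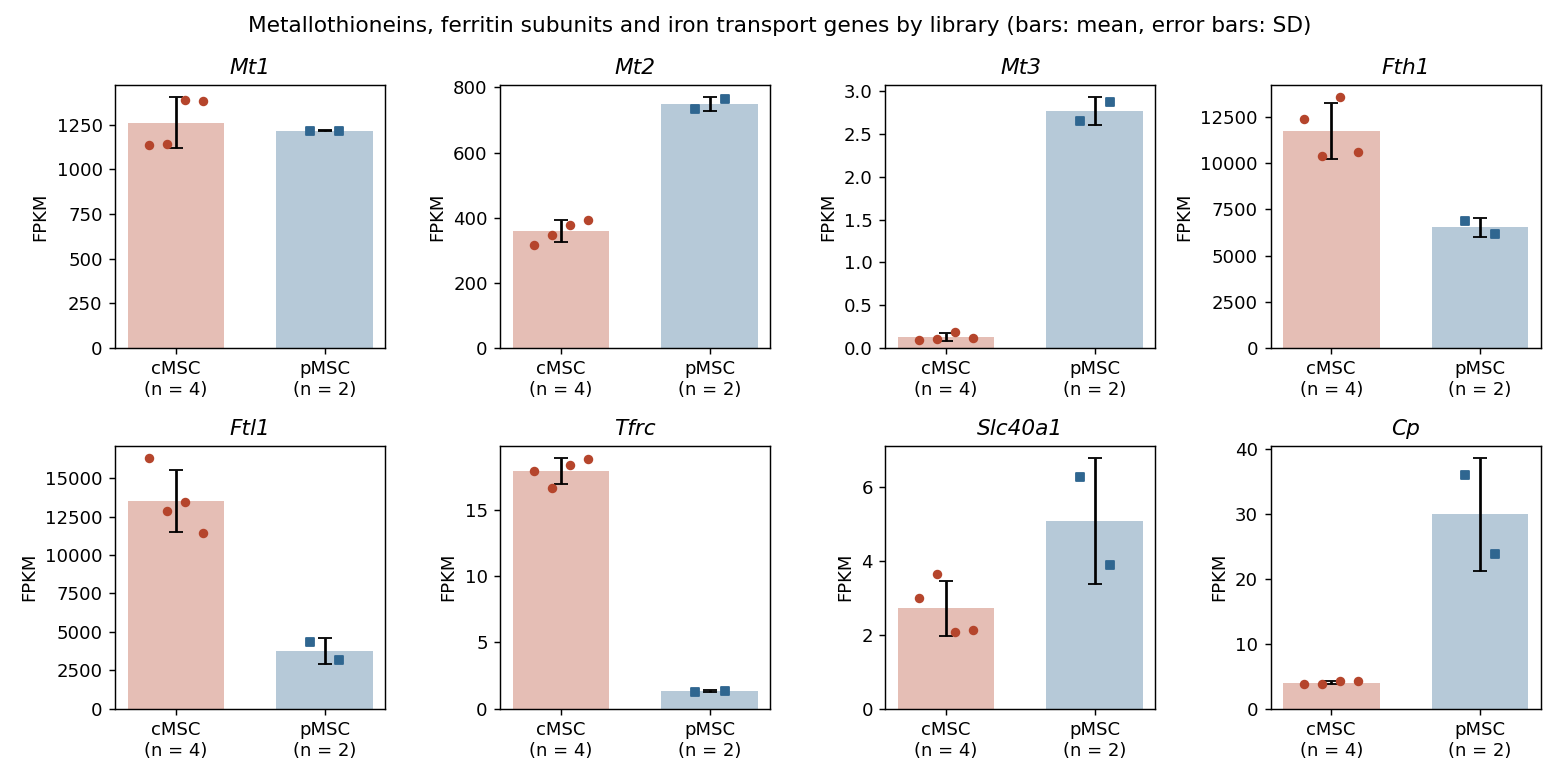
FPKM of 3 metallothioneins, both ferritin subunits and 3 iron transport genes by library, with the bar at the group mean and the error bar 1 SD (cMSC n = 4, pMSC n = 2); each panel has its own scale from 0. Points of the groups overlap for Mt1 alone among these 8 genes, and Tfrc averaged 17.9 FPKM in cMSCs against 1.33 FPKM in pMSCs.

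All 5 tested ZnT genes rose in cMSCs, with a median log2 fold change of 0.94, where 48.1% of all genes rose with a median of 0.45, and none turned lower under the other scalings, although Slc30a4 was no longer called under quantile normalization (log2 fold change 0.74) and median ratio scaling (0.53). The sum of the 9 ZnT genes was 61.6, 75.1, 89.5 and 86.0 FPKM in cMSCs, against 32.3 and 32.0 FPKM in pMSCs. Slc30a5, Slc30a6, Slc30a7 and Slc30a9 made up 92.7% to 96.5% of it in cMSCs and 92.9% and 95.2% in pMSCs. The first 3 of these supply zinc to enzymes of the early secretory pathway, alkaline phosphatase among them, with Slc30a5 and Slc30a6 acting as a pair.

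The member of the pair with the wider spread was Slc30a5. It had 6.22, 13.41, 22.59 and 20.54 FPKM in cMSCs, against 3.74 and 4.63 FPKM in pMSCs. The cMSC libraries spread widely, with cMSC 1 nearest to the pMSCs, and the log2 fold change was 1.73 (SE 0.47, limma adjusted p = 0.0118). That call was lost without pMSC 1 (log2 fold change 1.58, adjusted p = 0.0748). Slc30a6 had 16.32 to 20.63 FPKM in cMSCs, against 11.01 and 9.55 FPKM in pMSCs, a log2 fold change of 0.85 (SE 0.14, limma adjusted p = 8.66e-04). Slc30a7, a Golgi transporter, was about as even, at 21.56 to 25.02 FPKM in cMSCs against 12.25 and 12.29 FPKM in pMSCs (0.90, SE 0.11, limma adjusted p = 2.29e-04).

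Slc30a9, linked to zinc export from mitochondria, was, like Slc30a5, lowest in cMSC 1 among the cMSCs. It had 6.59, 17.76, 21.20 and 21.92 FPKM in cMSCs, against 3.02 and 4.01 FPKM in pMSCs. Every cMSC library was above both pMSC libraries, and cMSC 1 was well below the other cMSCs. This gave a log2 fold change of 2.10 (SE 0.46, limma adjusted p = 0.00413), which was 2.50 without cMSC 1. Slc30a4, a transporter of vesicles, had 2.57 to 4.04 FPKM in cMSCs, against 2.07 and 1.30 FPKM in pMSCs (0.94, SE 0.27, limma adjusted p = 0.0154), and its call was lost without pMSC 2 (0.63, adjusted p = 0.0904). Slc30a1, the main zinc exporter of the cell surface in many cells, was at 0.20 to 0.39 FPKM in cMSCs and 0.24 and 0.20 FPKM in pMSCs and was not tested. Slc30a3, a transporter of synaptic vesicles, reached at most 0.41 FPKM in any library, and Slc30a10, which exports manganese, reached 0.01 FPKM.

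ZIP genes moved in both directions, 6 of 10 tested higher and 2 lower in cMSCs, against 48.1% higher and 17.6% lower over all genes. Of the 2 lower, Slc39a8 passed the filter only through pMSCs and lends no weight to this count, which leaves Slc39a3. With TPM 5 rose and 3 fell (41.7% and 20.4% of all genes). After quantile normalization 3 rose and 4 fell (32.8% and 26.4% of all genes). After median ratio scaling 2 rose and 4 fell (29.3% and 28.6% of all genes). Slc39a8 was among those that fell under each. The summed level of the 14 ZIP genes was 618 to 666 FPKM in cMSCs, against 600 and 542 FPKM in pMSCs. Slc39a1, Slc39a7 and Slc39a13 carried 84.4% to 85.6% of that sum in cMSCs, against 89.0% and 87.7% in pMSCs. Slc39a1, a zinc importer of the cell surface, had 203.89 to 245.14 FPKM in cMSCs, against 291.81 and 219.53 FPKM in pMSCs, which overlap. Its log2 fold change was -0.19 (SE 0.13, limma adjusted p = 0.226). It was called lower without pMSC 2 (-0.40, adjusted p = 0.0227), was 0.01 without pMSC 1 (adjusted p = 0.940), and was called lower under the other 3 scalings (-0.34 to -0.63).

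Slc39a7, which releases zinc from the endoplasmic reticulum, had 223.45, 232.14, 226.58 and 244.81 FPKM in cMSCs, against 154.63 and 165.47 FPKM in pMSCs. The groups were clearly separate on this scale, with a log2 fold change of 0.53 (SE 0.09, limma adjusted p = 8.88e-04), but that is only 0.09 above the median of all genes, and it was not called after median ratio scaling (0.10, adjusted p = 0.341) or quantile normalization (0.11, adjusted p = 0.350). Slc39a13, whose loss causes a connective tissue disorder, had 89.94 to 98.38 FPKM in cMSCs, against 87.45 and 90.64 FPKM in pMSCs. Its log2 fold change of 0.10 (SE 0.09, limma adjusted p = 0.336) turned to -0.33 after median ratio scaling (adjusted p = 0.0102) and -0.30 after quantile normalization (adjusted p = 0.0167), both called lower.

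Slc39a6 and Slc39a11 rose under each of the 4 scalings, and Slc39a3 and Slc39a8 fell under each. Slc39a6, a surface importer related to Slc39a10, had 31.05, 27.78, 29.68 and 28.38 FPKM in cMSCs, against 15.74 and 13.51 FPKM in pMSCs. The cMSC libraries were close to each other and well above the pMSCs (log2 fold change 1.00, SE 0.11, limma adjusted p = 1.35e-04). Slc39a11, a more distant member of the family, had 31.03, 23.79, 28.47 and 26.83 FPKM in cMSCs, against 13.15 and 8.92 FPKM in pMSCs. Again no library of either group reached into the other (1.33, SE 0.18, limma adjusted p = 3.22e-04).

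Slc39a3, a zinc importer of the cell surface like Slc39a1, had 8.34, 11.43, 10.92 and 11.18 FPKM in cMSCs, against 16.40 and 20.97 FPKM in pMSCs. Its log2 fold change was -0.83 (SE 0.18, limma adjusted p = 0.00355), and every cMSC value was below both pMSC values. Slc39a8, which also carries manganese, had 0.53, 0.87, 0.66 and 0.74 FPKM in cMSCs, against 1.05 and 2.15 FPKM in pMSCs. At this low level the pMSC libraries differed by more than the nearest values of the 2 groups did, and the log2 fold change was -1.03 (SE 0.34, limma adjusted p = 0.0287). The call was lost without cMSC 1, cMSC 3, cMSC 4 or pMSC 2, with adjusted p of 0.0538 to 0.156. Of the remaining tested ZIP genes, Slc39a9, a Golgi member, rose by 0.38 (SE 0.13, limma adjusted p = 0.0270) and was at -0.05 after median ratio scaling (adjusted p = 0.750), and its call was lost without cMSC 1, cMSC 2, cMSC 4 or pMSC 1 (adjusted p of 0.0515 to 0.0684). Slc39a10, a surface importer, rose by 0.74 (limma adjusted p = 0.00886) and Slc39a14, which also takes up iron not bound to transferrin, by 0.77 (adjusted p = 0.00184). Neither was called after median ratio scaling (0.32 and 0.34). Slc39a2, Slc39a4, Slc39a5 and Slc39a12 were too low to test; Slc39a2 had 0.02 to 0.10 FPKM in cMSCs, against 1.16 and 0.75 FPKM in pMSCs.

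Among the genes of iron uptake, Tfrc, the transferrin receptor, showed the largest rise of all 28 tested members. It had 17.90, 16.63, 18.36 and 18.87 FPKM in cMSCs, against 1.29 and 1.36 FPKM in pMSCs. The libraries of each group were almost level, and the mean of cMSCs was 13.5 times that of pMSCs. The log2 fold change was 3.66 (SE 0.13, 95% interval 3.35 to 3.97, limma adjusted p = 5.41e-07), which is 3.22 above the median of all genes. The gene, at chr16:32608896-32632794 (GRCm38.p6), is the only member in whose 3′ UTR the search found the pattern, with the 4 matches shown above. Tfrc is also a gene of erythroid precursors; the erythroid marker sum was 0.270 to 0.780 FPKM in cMSCs, against 239 and 150 FPKM in pMSCs, and the part of such cells in its level was not tested. Tfr2, its relative of liver and erythroid cells, had 0.13 to 0.22 FPKM in cMSCs, against 0.52 and 0.67 FPKM in pMSCs, and was not tested.

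Steap3, the reductase of the transferrin cycle, was plentiful in both groups, at 98.02 to 120.69 FPKM in cMSCs and 112.07 and 158.23 FPKM in pMSCs. Its log2 fold change was -0.28 (SE 0.15, limma adjusted p = 0.138), and it was called lower without pMSC 1 (-0.52, adjusted p = 0.0102), after median ratio scaling (-0.71, adjusted p = 0.00450) and after quantile normalization (-0.70, adjusted p = 0.00929). Slc11a2, which carries iron across the membranes of endosomes, had 16.91 to 20.04 FPKM in cMSCs, against 13.28 and 12.89 FPKM in pMSCs. It rose by 0.49 (SE 0.12, limma adjusted p = 0.00652), close to the median of all genes, and was at 0.06 after median ratio scaling (adjusted p = 0.669) and 0.08 after quantile normalization (adjusted p = 0.565). Slc11a1, the related transporter of macrophage phagosomes, had 1.47, 1.87, 0.91 and 1.58 FPKM in cMSCs, against 0.72 and 0.70 FPKM in pMSCs. Its lowest cMSC library was cMSC 3, and the macrophage marker sum was 270, 334, 106 and 270 FPKM in cMSCs 1 to 4, lowest in the same library; the part of macrophages in this difference was not tested. The log2 fold change of 0.90 (SE 0.31, limma adjusted p = 0.0321) lost its call when any library other than cMSC 3 was left out (adjusted p of 0.0659 to 0.0857).

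All 3 members of iron storage rose, under each of the 4 scalings. Of all genes tested, 48.1% rose on FPKM, 41.7% with TPM, 32.8% with quantile normalization and 29.3% with median ratio scaling. The log2 fold changes of Fth1, Ncoa4 and Ftl1 lay 0.40, 0.48 and 1.42 above the median of all genes. Ferritin is a shell of heavy and light subunits, and its mRNAs were among the most abundant in the libraries. Fth1, the heavy subunit with the ferroxidase site, had 12388.92, 10393.84, 13568.72 and 10622.66 FPKM in cMSCs, against 6877.15 and 6167.36 FPKM in pMSCs. It ranked 2, 2, 1 and 2 among all genes in cMSCs, against 6 and 7 in pMSCs. The log2 fold change was 0.84 (SE 0.15, limma adjusted p = 0.00130). Ftl1, the light subunit, had 16295.89, 12842.83, 13452.43 and 11431.72 FPKM in cMSCs, against 4324.88 and 3134.98 FPKM in pMSCs. It ranked 1, 1, 2 and 1 in cMSCs, against 11 and 18 in pMSCs, so the 2 ferritin genes held the first 2 places in every cMSC library. On the log2 scale Ftl1 rose by 1.86 (SE 0.18, limma adjusted p = 6.16e-05).

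The balance of the subunits also differed between the groups. Ftl1 over Fth1 was 1.32, 1.24, 0.991 and 1.08 in cMSCs, against 0.629 and 0.508 in pMSCs. The light subunit was thus near or above the heavy in cMSCs and well below it in pMSCs, a comparison inside each library. Together they took 4.46%, 3.80%, 4.32% and 3.59% of the total FPKM in cMSCs, against 1.96% and 1.66% in pMSCs. The RefSeq gene table lists 5 ferritin pseudogenes, and reads shared with them could be split in ways the FPKM values do not show, so the 2 levels are uncertain to that extent. Ncoa4, the receptor that takes ferritin to lysosomes for iron release, had 53.99, 48.48, 48.88 and 48.04 FPKM in cMSCs, against 26.26 and 25.97 FPKM in pMSCs. Its libraries were nearly level within each group (log2 fold change 0.93, SE 0.10, limma adjusted p = 8.42e-05).

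Both genes of iron export fell, under each of the 4 scalings. Of all genes tested, 17.6% fell on FPKM, 20.4% with TPM, 26.4% with quantile normalization and 28.6% with median ratio scaling. Slc40a1, ferroportin, the known iron exporter of vertebrate cells, had 2.99, 3.64, 2.07 and 2.14 FPKM in cMSCs, against 6.28 and 3.88 FPKM in pMSCs. The highest cMSC library, cMSC 2, lay just below pMSC 2, and the pMSC libraries differed more than those neighbours. Its log2 fold change was -0.88 (SE 0.30, limma adjusted p = 0.0306). The call was lost without cMSC 3 (-0.77, adjusted p = 0.0697), cMSC 4 (-0.78, adjusted p = 0.0696) or pMSC 1 (-0.54, adjusted p = 0.199). Cp, ceruloplasmin, a copper ferroxidase that assists ferroportin, had 3.77, 3.77, 4.29 and 4.20 FPKM in cMSCs, against 36.06 and 23.82 FPKM in pMSCs. The 4 cMSC libraries were alike and far below either pMSC library, and the pMSC mean was 7.47 times the cMSC mean. On the log2 scale Cp fell by 2.84 (SE 0.19, limma adjusted p = 8.37e-06). Within libraries, Tfrc over Slc40a1 was 5.99, 4.57, 8.87 and 8.82 in cMSCs, against 0.205 and 0.351 in pMSCs. The uptake gene thus exceeded the export gene per length in every cMSC library and in neither pMSC library.

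Ireb2, which encodes an iron regulatory protein that binds the elements shown above, had 3.83, 3.69, 3.36 and 4.50 FPKM in cMSCs, against 2.14 and 2.59 FPKM in pMSCs. It rose by 0.68 (SE 0.20, limma adjusted p = 0.0156), but the call was lost without pMSC 1 (0.54, adjusted p = 0.0538), after median ratio scaling (0.26, adjusted p = 0.277) and after quantile normalization (0.42, adjusted p = 0.0832). Aco1, which encodes the other iron regulatory protein, averaged 15.4 ± 1.34 FPKM in cMSCs (SD, n = 4) and 11.0 ± 2.04 FPKM in pMSCs (SD, n = 2). Its log2 fold change was 0.49 (SE 0.15, limma adjusted p = 0.0215), and its call was lost with TPM (0.35, adjusted p = 0.0670), quantile normalization (0.10, adjusted p = 0.619) and median ratio scaling (0.06, adjusted p = 0.775).

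**Figure D4:**
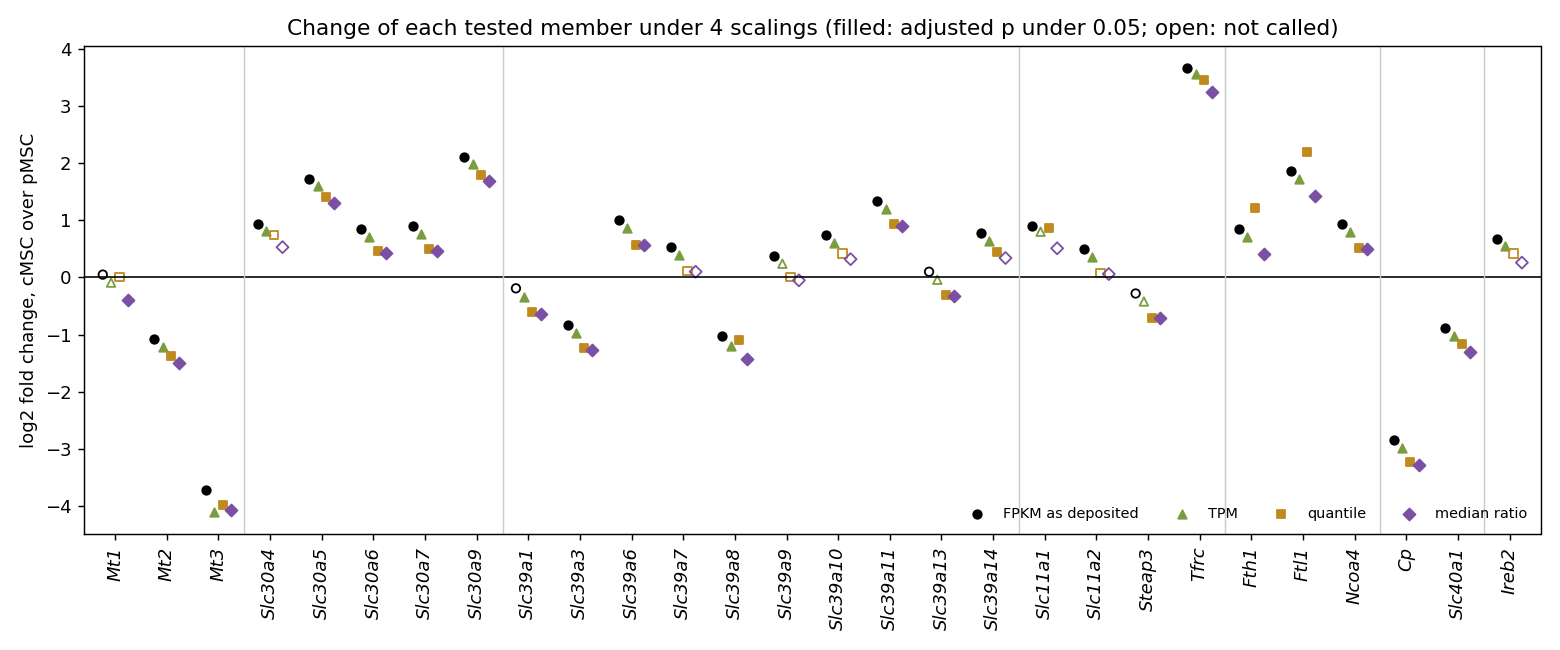
The log2 fold change of each tested member, cMSC over pMSC, on FPKM as deposited and after TPM rescaling, quantile normalization and median ratio scaling; filled symbols have a limma adjusted p under 0.05. Members such as Tfrc, Ftl1, Slc30a9, Mt2, Mt3 and Cp are filled and on the same side under all 4, while Mt1, Slc39a9 and Slc39a13 cross 0. Mt3 passed the filter only through pMSCs.

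The scale decided how many members rose. With FPKM as deposited 18 rose and 6 fell, with TPM 16 and 7, with quantile normalization 12 and 9, and with median ratio scaling 10 and 10. The matching shares over all genes were 41.7% higher and 20.4% lower with TPM, 32.8% and 26.4% with quantile normalization, and 29.3% and 28.6% with median ratio scaling. Called higher under all 4 were 10 members, namely Tfrc, Fth1, Ftl1, Ncoa4, Slc30a5, Slc30a6, Slc30a7, Slc30a9, Slc39a6 and Slc39a11, and called lower under all 4 were 6, namely Mt2, Mt3, Cp, Slc40a1, Slc39a3 and Slc39a8. Mt3 and Slc39a8 passed the filter only through pMSCs and lend no weight to the count of those lower.

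Other genes of the same pathways were read from a list that the rule does not use. Of 32 further iron genes, 28 were in the table and 21 were tested, of which 14 rose (66.7%) and 6 fell (28.6%), against 48.1% and 17.6% of all genes. With TPM 12 rose, with quantile normalization 9 and with median ratio scaling 7, and 6 fell under each. The largest rise was that of Hmox1, which frees iron from heme, at 494 ± 29.8 FPKM in cMSCs (SD, n = 4) and 18.9 ± 5.30 FPKM in pMSCs (SD, n = 2), a log2 fold change of 4.72 (SE 0.15, limma adjusted p = 3.44e-07). Hmox1 is also a gene of macrophages, and the part of macrophages in its rise was not tested; it had 463.67, 534.49, 484.13 and 492.36 FPKM in cMSCs 1 to 4, where the macrophage marker sum was 270, 334, 106 and 270 FPKM. Metalloreductases of the Steap family went both ways: Steap1 rose by 3.76 and Steap2 by 2.19 on the log2 scale, and Steap4 fell by 2.85 (limma adjusted p of 4.14e-06, 1.01e-05 and 9.87e-06). Slc25a37, a mitochondrial iron importer, rose by 1.78 (adjusted p = 6.64e-04), whereas Slc25a28, its relative, fell by 0.92 (adjusted p = 0.0424). Trf, transferrin itself, averaged 2.65 ± 0.954 FPKM in cMSCs and 11.4 ± 1.88 FPKM in pMSCs, so the ligand fell by 2.14 (limma adjusted p = 0.00103) where its receptor rose. Slc22a17, a receptor for lipocalin 2, fell by 2.08 (adjusted p = 8.19e-04), with 0.27 to 0.61 FPKM in cMSCs against 2.22 and 2.12 FPKM in pMSCs. It passed the filter only through pMSCs, so it had to differ and lends no weight to the count of iron genes that fell.

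Of 23 further genes of zinc, copper and magnesium handling and of metal response, 21 were tested, of which 6 rose (28.6%) and 5 fell (23.8%), against 48.1% and 17.6% of all genes. With TPM 6 rose and 6 fell, and with quantile normalization or median ratio scaling 5 rose and 7 fell. Mtf1, the zinc-sensing factor of the metallothionein promoters, averaged 1.56 ± 0.170 FPKM in cMSCs (SD, n = 4) and 1.14 ± 0.389 FPKM in pMSCs (SD, n = 2), a log2 fold change of 0.46 (SE 0.26, limma adjusted p = 0.158). Largest among the rises were Cnnm2 (1.94) and Slc41a2 (1.60), both of magnesium transport, Atp2c1 (1.18), a calcium and manganese pump of the Golgi, and Slc31a1 (1.14), the copper importer, with limma adjusted p of 3.04e-05 to 9.48e-05. The heat shock genes Hspa1a and Hspa1b, near-identical copies whose reads may be split between them, had log2 fold changes of -5.27 and -5.06 (limma adjusted p of 7.84e-06 and 6.71e-06), with 4.09 ± 0.885 FPKM of Hspa1a in cMSCs and 175 ± 104 FPKM in pMSCs. Hspa1b had 0.06 to 0.09 FPKM in cMSCs, against 7.22 and 4.38 FPKM in pMSCs. Hspa1b thus passed the filter only through pMSCs, had to differ and lends no weight to the count of those that fell. Sod3, an extracellular copper and zinc enzyme, fell by 1.67 (limma adjusted p = 4.01e-05) and Slc31a2, a copper transporter of vesicles, by 0.62 (adjusted p = 0.00198).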

How the data were processed

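Per the labels and the study's methods, the authors prepared SMART-Seq v4 libraries, cleaned the reads, aligned them with HISAT2 2.0.4 (genome, GRCm38.p6) and Bowtie2 2.2.5 (reference genes), and estimated levels with RSEM 1.2.8. The deposited table holds FPKM values for each library with 2 decimals, and a column of the authors' log2 fold changes, per the methods from DESeq2, which was not used. It holds no counts, so the reads behind a value are unknown.

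Genes that reached 1 FPKM in 2 or more of 6 libraries were compared with limma 3.58.1 in R 4.3.3 on log2(FPKM + 0.1), with a linear model of the 2 groups, variances moderated with a trend and Benjamini-Hochberg adjustment. The pseudocount understates changes of low genes. The test was tried on simulated data in which 200 genes were changed. It recovered 94.0% and 98.0% of log2 fold changes of -3 and 3, but 36.0% and 44.0% of those of -1 and 1, with 7 false calls. A member that was not called may therefore still have changed. The simulation changed far fewer genes than were called in the data, so its shares need not hold there. Residual degrees of freedom were 4; an exact permutation test of 4 against 2 libraries cannot give a p below 0.0667.

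The alternatives were pseudocounts of 0.01 and 1, other filters, TPM, quantile and median ratio scaling, other variance moderation, the replicate number as a block and each library left out. Values per library are given for members called whose log2 fold change was 1 or more in either direction, for Mt1, Mt2, Fth1, Ftl1, Tfrc and Slc40a1 and for several others chosen after their values were seen. Of related lists, the 4 largest called changes in each direction are named, and Mtf1 and Aco1 by choice. The members and lists were chosen with earlier results of these data known.

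Coordinates come from the RefSeq gene table of GRCm38.p6. Promoter windows matched 33 of the 38 members.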

Additional observations from a re-analysis of the deposited data

Results flagged for a closer look

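Among the 4 cMSC libraries of each of the 28 tested members, 2 values stood apart by Dixon's test, which compares the gap to the nearest library with the whole range (at its 95% critical value). Ncoa4 was highest in cMSC 1, at 53.99 FPKM, with the gap at 0.859 of the range. Slc39a3 was lowest in cMSC 1, at 8.34 FPKM, with the gap at 0.835 of the range. Chance marks about 1 in 20 groups. Both genes kept their call and direction without cMSC 1.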

How the results depend on the processing

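Over 16 alternatives, 13 of the 24 called members kept call and direction throughout: Tfrc, Fth1, Ftl1, Ncoa4, Cp, Mt2, Mt3, Slc30a6, Slc30a7, Slc30a9, Slc39a3, Slc39a6 and Slc39a11. With each library left out in turn, 17 did. Mt3 is in both counts but passed the filter only through pMSCs, so it lends no weight to either. Over the 28 members, 8 values changed sign. Of the other values, 389 were on the same side of the threshold, 44 lost the call and 7 gained it. Some that changed sign also crossed the threshold. Mt1 with median ratio scaling and Slc39a13 with median ratio scaling and quantile normalization became called, and Slc39a9 with median ratio scaling lost its call. The changes of sign were Mt1 with TPM (-0.09), median ratio scaling (-0.39) and the replicate block (-0.09), Slc39a9 with median ratio scaling (-0.05), Slc39a13 with TPM (-0.04), median ratio scaling (-0.33) and quantile normalization (-0.30), and Slc39a1 without pMSC 1. Leaving out 1 library gave Slc39a1 log2 fold changes of -0.40 to 0.01. With median ratio scaling 3346 genes rose and 3267 fell, and 10 members rose and 10 fell. The members higher past the study's thresholds numbered 1 with TPM, with median ratio scaling, with no filter, with a pseudocount of 1 and with the replicate block, and those lower numbered 1 with a pseudocount of 1. With quantile normalization those higher numbered 2 because Ftl1 passed where Slc30a9 (1.79) did not. With the replicate block Slc30a9 was at 1.61. Leaving out each library gave 4976 to 5445 genes higher and 1796 to 2062 lower, 14 to 18 members higher and 4 to 6 lower, and 1 to 3 members higher past the study's thresholds. The replicate numbers share no stated origin, and same-numbered libraries correlated weakly in their deviations (r of 0.12 and 0.05 across genes, 2 pairs); with the number as a block 4594 genes rose and 1597 fell, and 7 members lost their call. The cause of the shift in the median gene was not tested. With 2 pMSC libraries the spread of that group rests on a single difference.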
